A study of Mus musculus with 15 samples.

Results

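Hmgcs1, Mvd, Idi1, Fdps, Fdft1, Sqle, Lss and Cyp51 encode enzymes of cholesterol synthesis and are known targets of SREBP2, a transcription factor set free when sterol is low. The 8 genes were chosen by name, with earlier results of these data known. Every probe set annotated to them was taken: 21 of the 22626 probe sets on the array that were not controls, for 8 of 12393 annotated genes. Liver RNA of mice aged 16 months had been hybridised to Affymetrix mouse arrays, 1 array for each of 15 samples, in a study of how liver tumours arise in Mdr2-knockout mice. Mdr2, now named Abcb4, codes for the protein of the bile canaliculus that exports phosphatidylcholine. Homozygous Mdr2-KO mice gave 6 tumours and 6 samples of liver without tumour, called non-tumorous knockout livers here, and heterozygous mice gave 3 control livers, so that the controls were not wild type and carried the knockout allele too. By the sample titles the 12 knockout samples came from 6 mice. Mice 3 and 4 gave 1 tumour and 1 non-tumorous liver each, mouse 5 gave tumours 5-1 and 5-2 beside its liver, mouse 6 gave tumours 6-1 and 6-2 beside its liver, and mice 1 and 2 gave non-tumorous liver only. With the 3 controls the arrays stand for 9 mice. The p-values below rest on the spread between these samples, several of which share a mouse. How precise each value can be is limited by how few arrays there were. Strain and sex are not given in the labels used here.

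Cholesterol is made from acetyl-CoA. Hmgcs1 makes HMG-CoA, a reductase turns it into mevalonate, and kinases, Mvd and Idi1 turn that into the active isoprene units that Fdps joins to farnesyl diphosphate. Fdft1 joins farnesyl diphosphate to squalene, Sqle oxidises it, Lss closes the ring to lanosterol, and Cyp51 begins the removal of methyl groups on the way to cholesterol. When sterol in the membrane of the endoplasmic reticulum is low, Scap carries SREBP2 to the Golgi, where proteases free the part that enters the nucleus and switches on these genes; when sterol is plentiful, Insig proteins hold the complex back. The liver makes cholesterol for lipoproteins and bile, and bile carries it out of the liver together with phosphatidylcholine.

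SREBP2 acts on sterol elements close to the start of its target genes, often beside CCAAT boxes that the factor NF-Y binds, so the stretch before the start is shown for the genes that had an entry, 5 of the 8. The sequences are from RefSeq, build GRCm38.p6, 5′ to 3′ on the strand of the gene, and end at the base before the start. The first pair runs over 250 bases and the others over the 100 bases nearest the start. Capitals mark matches, on either strand, to the sterol element TCACNCCAC, to its looser form TCACNNCA, which the first contains, and to CCAAT, which reads ATTGG on the other strand. These motifs were chosen after the sequences had been seen.
Hmgcs1, chr13:119690101-119690350, plus strand: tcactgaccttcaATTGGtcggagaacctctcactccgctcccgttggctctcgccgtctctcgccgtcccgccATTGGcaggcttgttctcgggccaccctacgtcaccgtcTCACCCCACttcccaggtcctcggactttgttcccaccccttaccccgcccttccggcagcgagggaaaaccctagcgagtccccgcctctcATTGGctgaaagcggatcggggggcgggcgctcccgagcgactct
Cyp51, chr5:4104698-4104947, minus strand: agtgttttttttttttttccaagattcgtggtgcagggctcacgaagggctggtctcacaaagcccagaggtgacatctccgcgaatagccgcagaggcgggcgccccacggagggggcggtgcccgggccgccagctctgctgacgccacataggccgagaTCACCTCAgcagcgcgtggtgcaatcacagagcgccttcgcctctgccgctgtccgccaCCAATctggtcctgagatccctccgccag
Idi1, chr13:8885506-8885605, plus strand: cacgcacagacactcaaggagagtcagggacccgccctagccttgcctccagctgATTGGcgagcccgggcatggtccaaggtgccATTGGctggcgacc
Mvd, chr8:122443423-122443522, minus strand: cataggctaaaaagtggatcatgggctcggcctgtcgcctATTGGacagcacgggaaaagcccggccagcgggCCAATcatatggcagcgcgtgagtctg
Lss, chr10:76531465-76531564, plus strand: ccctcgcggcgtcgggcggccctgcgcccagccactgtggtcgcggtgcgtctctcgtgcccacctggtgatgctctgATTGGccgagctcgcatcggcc

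Hmgcs1 held TCACNCCAC with its first base 137 bases before the start, and 1.05% of the 32851 mouse promoters in the table held this motif in the 250 bases before the start. TCACNNCA was found in Hmgcs1, at the same place, and in Cyp51, 88 bases before the start, against 11.4% of promoters. CCAAT on either strand was found in 5 of 5 genes, against 33.8% of promoters, and Hmgcs1 held it at 3 places. The Lss stretch searched was 210 bases long. A match describes the letters in this window, and binding was not measured.

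Abcb4 itself served as a check of the labels. Its signal lay between 122.5 and 681 in the tumours, between 177 and 306 in the non-tumorous livers of knockout mice and between 779 and 1006 in the controls. All 12 knockout samples were below all 3 controls, although it is not known whether the single probe set lies inside the deleted stretch. Hepatocyte markers were bright on every array: the summed signal of the 6 measured of 7 listed (Alb, Ttr and others) lay between 49051 and 60002 in tumours, between 54672 and 70106 in non-tumorous knockout livers and between 66928 and 73966 in controls, and each of the 6 passed the 40th percentile of an array's signals on at least 1 array. The 3′ to 5′ ratio of actin, higher where RNA is more degraded, was 1.78 ± 0.208 in tumours, 2.09 ± 0.393 in non-tumorous knockout livers and 2.99 ± 0.414 in controls (SD, n = 6, 6 and 3). The median signal of an array lay between 35.8 and 51.1. Values below are the deposited signals, on a linear scale, and log2 changes are differences of log2(signal + 9.1), which understate the change of dim probe sets.

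On average the 8 genes had higher signals in the non-tumorous knockout livers than in the controls. For 6 of them the difference passed the test in a fit of these 2 groups alone. It did not pass with the tumours in the fit or with the actin ratio as a covariate, and Fdft1 and Mvd passed in none of these fits. By the brightest probe set of each gene, the log2 change of knockout livers over controls was positive for 8 of 8 genes with a median of 0.89, and over all 18 member probe sets that passed the filter on low signals it was positive for 16 with a median of 0.65, beside -0.015 over all 16120 probe sets tested. For Hmgcs1, Sqle, Idi1, Fdps and Cyp51 all 6 knockout livers lay above all 3 controls. In all, 6 of the 18 member probe sets were higher without overlap, against 7.73% of all probe sets tested; probe sets of 1 gene share their RNA and are not independent. A probe set passed the filter where its signal was above the array's 40th percentile on at least 3 arrays, and the 3 that failed were 1 of Fdps and 2 of Fdft1.

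With all 15 arrays in the fit, where tumours and livers share 1 estimate of the spread, 0 of 18 member probe sets passed the test at an adjusted p under 0.05 in limma in any of the 3 comparisons, and 0 had an unadjusted p under 0.05. Of all probe sets, 1.82% were called in non-tumorous knockout livers over controls, 0.124% in tumours over non-tumorous knockout livers and 6.4% in tumours over controls. With only the non-tumorous knockout livers and the controls in the fit, 8 of the 18 were called, all higher in the knockout livers, against 9.29% of all probe sets. The 8 belonged to 6 genes: Hmgcs1 with 3 probe sets, and Sqle, Idi1, Fdps, Cyp51 and Lss with 1 each. Leaving out 1 of these 9 arrays at a time gave 3 to 11 calls, while 5.14% to 9.61% of all probe sets were called. The fewest, 3 and 4, came without controls 1 and 3, where the shares of all probe sets were 5.87% and 5.14%. With the log2 actin ratio, which was lower on average in knockout livers, as a covariate in the fit of the 9 arrays, 0 of 18 were called, against 5.74% of all probe sets. The ratio lay between 1.74 and 2.74 in knockout livers and between 2.55 and 3.37 in controls. Over 9 arrays it can thus not be fully told apart from the group. With that covariate the log2 change of Hmgcs1 was 0.74 (adjusted p = 0.0833), that of Fdps 0.41 (adjusted p = 0.363) and that of Lss 0.32 (adjusted p = 0.655) in limma, and all 8 genes were still positive. The other gene lists below were not refitted with the covariate. Tumours over non-tumorous knockout livers and tumours over controls gave 0 calls among the 18 also when only the 2 groups compared were fitted, where 0% and 1.39% of all probe sets were called.

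**Figure D1:**
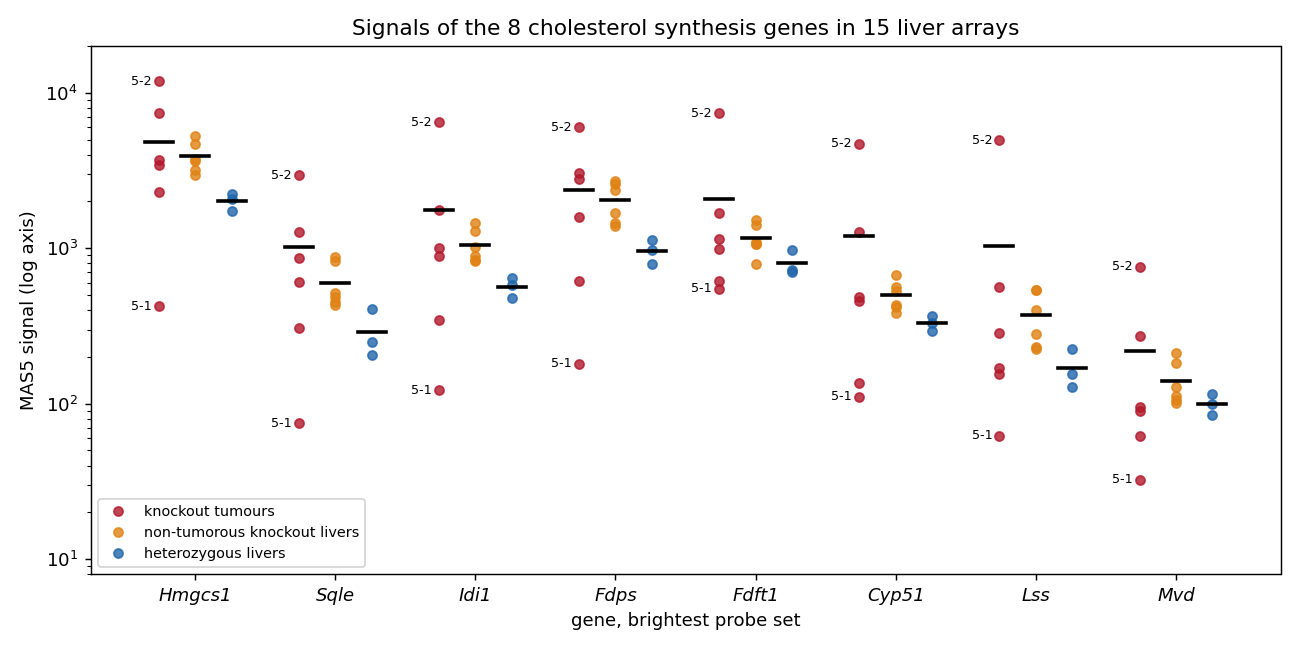
Deposited MAS5 signal (log axis) of the brightest probe set of each gene in 6 knockout tumours, 6 non-tumorous knockout livers and 3 heterozygous livers; points are arrays, bars are means, and tumours 5-1 and 5-2 are labelled. The knockout livers lie above the controls for Hmgcs1, Sqle, Idi1, Fdps and Cyp51, and the tumours span the widest range for each of the 8 genes.

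Hmgcs1, the synthase that makes HMG-CoA for the mevalonate route, was measured by 4 probe sets. The brightest had a lowest signal of 423, a median of 3539 and a highest of 11822 in the tumours. It had a lowest of 2952, a median of 3696 and a highest of 5252 in the non-tumorous knockout livers, and 1747, 2083 and 2232 in the controls. The knockout livers were all above the controls, while the tumours lay on both sides of each other group. Knockout livers averaged 3902 ± 886 and controls 2020 ± 248 (SD, n = 6 and 3), a log2 change of 0.92 with an SE of 0.63 and an adjusted p of 0.522 over all 15 arrays, and with an SE of 0.16 and an adjusted p of 0.00179 over these 9 arrays. Tumours over non-tumorous knockout livers gave -0.26 (95% interval -1.35 to 0.83) and tumours over controls 0.67 (-0.66 to 1.99). Of the other 3 probe sets, the dimmest also separated knockout livers from controls, and for each of the remaining 2 the knockout livers lay above all controls in 5 of 6 mice.

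Mvd, which decarboxylates mevalonate diphosphate to the isoprene unit, had a lowest signal of 32.5, a median of 93.15 and a highest of 760 in the tumours. Non-tumorous knockout livers had a lowest of 102, a median of 120 and a highest of 210, and controls had 99.6, 115 and 84.5. Knockout livers 1, 2 and 4 were above all controls and the other 3 were within their range. The log2 change of knockout livers over controls was 0.41 (95% interval -0.84 to 1.67, adjusted p = 0.798), and it was not called over these 9 arrays either (adjusted p = 0.276). The second probe set gave 0.61, with an adjusted p of 0.598 over all arrays and of 0.118 over 9. Between tumours and non-tumorous knockout livers the log2 difference was -0.069 (-1.10 to 0.96).

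Idi1, the isomerase that balances the 2 isoprene units, had a lowest signal of 122, a median of 945 and a highest of 6441 in the tumours. The values were 830, 958 and 1445 in the same order in the non-tumorous knockout livers, and 639, 481 and 576 in the controls. All knockout livers were above all controls, whereas the second, dimmer probe set was above all controls in 2 of 6 knockout livers. The log2 change of knockout livers over controls was 0.86, with an SE of 0.73 and an adjusted p of 0.621 over all arrays and an SE of 0.17 and an adjusted p of 0.00425 over 9; the second probe set gave 0.39, not called in either fit (adjusted p = 0.875 and 0.340). In tumours over non-tumorous knockout livers the log2 change was -0.23 (-1.49 to 1.03).

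Fdps, which makes farnesyl diphosphate, had a lowest signal of 181, a median of 2195 and a highest of 6015 in the tumours. It had a lowest of 1381, a median of 2023 and a highest of 2721 in the non-tumorous knockout livers, and 789, 1122 and 973 in the controls. All 6 knockout livers were above the controls, while tumours 3 and 5-1 were below them. The log2 change of knockout livers over controls was 1.03, with an SE of 0.70 and an adjusted p of 0.520 over all arrays and an SE of 0.21 and an adjusted p of 0.00416 over 9. Set against non-tumorous knockout livers, tumours were at -0.42 (-1.63 to 0.78). A second probe set never reached the 40th percentile of an array and was not tested.

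Fdft1, squalene synthase, had a lowest signal of 548, a median of 1066 and a highest of 7385 in the tumours. Non-tumorous knockout livers had a lowest of 796, a median of 1080 and a highest of 1514, and controls had 722, 972 and 705. Knockout liver 3 was the only one within the range of the controls. The log2 change of knockout livers over controls was 0.51 (95% interval -0.61 to 1.63, adjusted p = 0.701), and 0.68 by the second probe set; over 9 arrays both missed the threshold (adjusted p = 0.0804 and 0.0713). Tumours over non-tumorous knockout livers gave 0.20 (-0.72 to 1.12).

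Sqle, squalene epoxidase, a step that limits the rate of the pathway, had a lowest signal of 75.1, a median of 739 and a highest of 2947 in the tumours. It had a lowest of 430, a median of 503 and a highest of 881 in the non-tumorous knockout livers, and 207, 408 and 251 in the controls. The gap between the lowest knockout liver and control 2 was small. Knockout livers averaged 599 ± 200 and controls 289 ± 106 (SD, n = 6 and 3), a log2 change of 1.03 with an SE of 0.69 and an adjusted p of 0.516 over all arrays, and with an SE of 0.24 and an adjusted p of 0.0116 over 9. Between tumours and non-tumorous knockout livers the log2 difference was 0.078 (-1.12 to 1.27). Tumours over controls gave 1.11 (-0.35 to 2.56), and this change was called in the fit of 14 arrays without tumour 5-1 (1.68, adjusted p = 0.0445, limma). In the fits that left out 1 array each, 2.36% to 7.47% of all probe sets were called in this comparison.

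Lss, which cyclises oxidised squalene to lanosterol, had a lowest signal of 62.1, a median of 227 and a highest of 4943 in the tumours. Non-tumorous knockout livers had a lowest of 225, a median of 342 and a highest of 542, and controls had 128, 226 and 155. Knockout liver 6, at 225, was just below control 2, and the other 5 were above all controls. The log2 change of knockout livers over controls was 1.03, with an SE of 0.83 and an adjusted p of 0.599 over all arrays and an SE of 0.27 and an adjusted p of 0.0235 over 9. The 3 probe sets of Lss disagreed: the second brightest gave -0.28 and the dimmest gave -0.48, neither called in either fit. In tumours over non-tumorous knockout livers the log2 change was -0.038 (-1.46 to 1.39) by the brightest.

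Cyp51, lanosterol demethylase, had a lowest signal of 111, a median of 471 and a highest of 4711 in the tumours. It had a lowest of 384, a median of 481 and a highest of 672 in the non-tumorous knockout livers, and 330, 369 and 295 in the controls. All knockout livers were above all controls, the lowest by a narrow margin over control 2. The log2 change of knockout livers over controls was 0.56, with an SE of 0.75 and an adjusted p of 0.778 over all arrays and an SE of 0.17 and an adjusted p of 0.0426 over 9. The other 2 probe sets, both dimmer, gave 0.26 and 0.27 and were not called. Set against non-tumorous knockout livers, tumours were at 0.10 (-1.19 to 1.40).

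The tumours lay on both sides of the non-tumorous livers. Over the 18 member probe sets the log2 change of tumours over non-tumorous knockout livers was positive for 10 and negative for 8, with a median of 0.048, beside 0.020 over all probe sets. The SD of log2 signals over the 6 tumours had a median of 1.69 over the member probe sets and of 0.43 over all probe sets tested. Over the 6 non-tumorous knockout livers it was 0.42 for the members and 0.30 for all probe sets. The median ratio of both SDs was 3.99 for the members and 1.41 for all. By the SD in tumours, the brightest probe sets of Lss, Cyp51 and Idi1 stood at percentiles 99.8, 99.7 and 99.6 of all probe sets, and that of Fdft1, the lowest of the 8, at 98.3.

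The extremes of that spread were the 2 tumours of mouse 5. Tumour 5-1 had the lowest signal and tumour 5-2 the highest signal of all 15 arrays for each of the 8 genes. Averaged over the 8 genes as log2 deviations from each gene's mean, tumour 5-2 stood at 2.74 and tumour 5-1 at -2.25. The other tumours stood at 1.01 (tumour 4), 0.16 (6-2), 0.023 (6-1) and -1.01 (tumour 3). Non-tumorous knockout livers lay between -0.18 and 0.71, with livers 1 and 4 the highest, and the controls between -0.75 and -0.39.

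Set against each other, tumour 5-2 was at least 2-fold higher than tumour 5-1 in 18 of 18 member probe sets, against 7.15% of all probe sets, and at least 2-fold lower in 0, against 7.99%. The median log2 difference was 4.72 over the members and -0.093 over all probe sets. Lss differed most, with signals of 4943 in tumour 5-2 and 62.1 in tumour 5-1, and its log2 difference of 6.12 was the second highest of all 16120 probe sets. Idi1, Cyp51, Sqle and Fdps followed with ratios of 52.8, 42.6, 39.2 and 33.3 by the brightest probe set, and Hmgcs1, Mvd and Fdft1 with 27.9, 23.4 and 13.5. Both values are from 1 array each, so these are differences between 2 samples with no replicate.

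The 2 tumours of mouse 6 were much closer. Tumour 6-2 was at least 2-fold higher than tumour 6-1 in 1 of 18 member probe sets, against 4.46% of all, and at least 2-fold lower in 0, against 5.37%, with a median log2 difference of 0.11. Sqle was the exception, with signals of 1272 in tumour 6-2 and 610 in tumour 6-1.

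**Figure D2:**
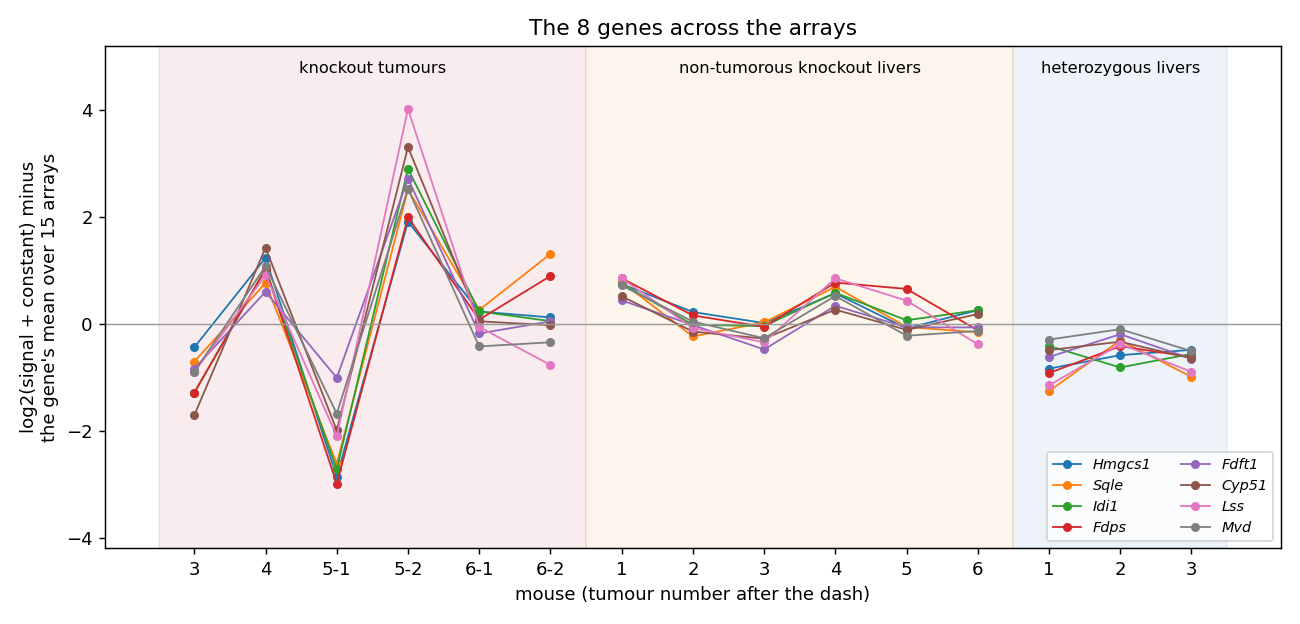
Log2(signal + constant) of each gene minus its mean over 15 arrays, by mouse, for knockout tumours, non-tumorous knockout livers and heterozygous livers; lines join the values of 1 gene within a group and imply no order of mice. All 8 genes stand low in tumour 5-1 and high in tumour 5-2.

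Against the non-tumorous liver of its own mouse, the tumours of mice 3, 4 and 5 each had all 8 genes on 1 side by the brightest probe sets, and the side differed between tumours. Tumour 5-2 over liver 5 was at least 2-fold higher in 17 of 18 member probe sets, against 8.75% of all, with a median log2 difference of 2.78. Tumour 5-1 over the same liver was at least 2-fold lower in 15 of 18, against 7.95% of all, with a median of -2.28. The liver of mouse 5 thus lay between its tumours, at 0.076 on the scale of the mean profile.

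Tumour 3 over liver 3 was lower in 8 of 8 genes by their brightest probe sets, and at least 2-fold lower in 5 of 18 member probe sets, against 11% of all probe sets, with a median of -0.57. Tumour 4 over liver 4 was higher in 8 of 8 genes, and at least 2-fold higher in 3 of 18, against 5.63%, with a median of 0.36. The 3 were the brightest probe set of Cyp51, the dimmest of Cyp51 (42.9 and 3.4) and the dimmest of Lss (40.7 and 9.6). Both of the dimmest had signals close to background. For mouse 6 the medians were close to 0: -0.013 for tumour 6-1 and 0.18 for tumour 6-2, with 1 and 3 of 18 probe sets at least 2-fold higher, against 5.02% and 6.61%. The 1 of tumour 6-1 was the dimmest Cyp51 probe set (26, and 2.8 in liver 6), which was also among the 3 of tumour 6-2. By the brightest probe sets, tumour 6-2 was above its liver by a log2 difference of 1.47 for Sqle and 1.02 for Fdps, and Lss was at -0.39. With a fixed block for each of the 4 mice that gave both tissues, 0 of 18 member probe sets were called in limma. Without that block 0.124% of all probe sets were called over all arrays and 0% with 2 groups, so this 0 says little about the 8 genes.

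**Figure D3:**
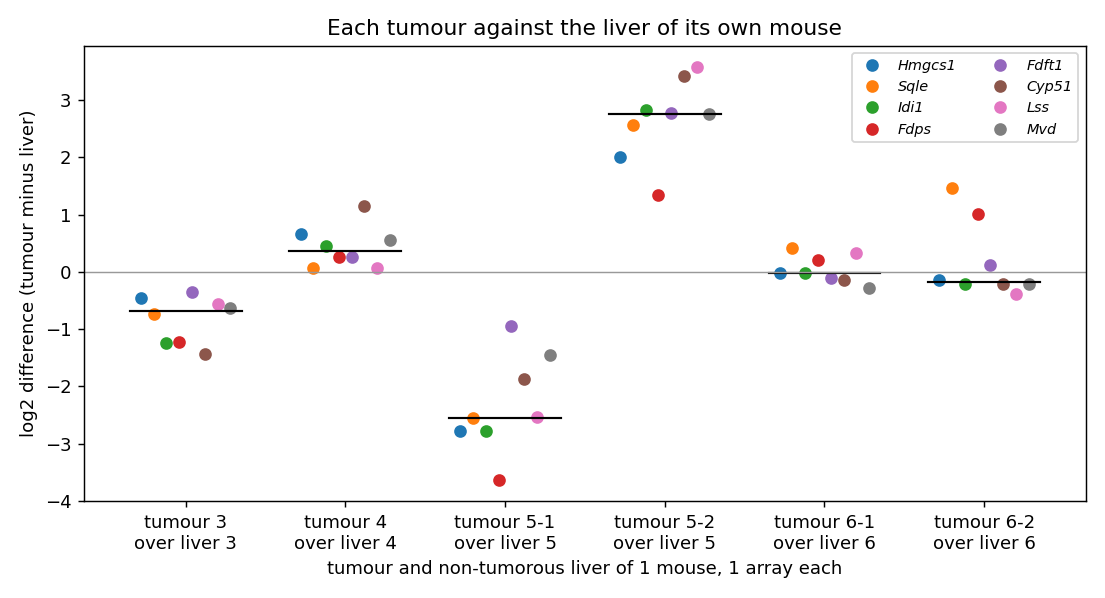
Log2 difference between each tumour and the non-tumorous liver of the same mouse, for the brightest probe set of each gene; bars are medians over these 8 values, not over all 18 probe sets, and each value is from 1 tumour and 1 liver array. Tumours 3 and 5-1 lie below 0 for all 8 genes, tumours 4 and 5-2 above 0, and the tumours of mouse 6 on both sides.

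Markers of cell types and RNA quality were compared between the tumours of mouse 5. Hepatocyte markers summed to 50426 in tumour 5-2 and 49051 in tumour 5-1, the lowest values of the 15 arrays. Macrophage markers (7 of 7 measured) summed to 3424 in tumour 5-2 and 5405 in tumour 5-1, with 5-1 the highest of all arrays. Within that list Clec4f and Cd5l, markers of resident macrophages, ran the other way, at 209 and 187 in tumour 5-2 and at 28.4 and 46.2 in tumour 5-1, the lowest of all arrays. Lymphocyte markers (6 of 6) summed to 287 in tumour 5-2 and 665 in tumour 5-1, mostly through Ptprc, which all leukocytes carry, at 183 and 567 in the same order; the other 5 lay between 7.5 and 31.1 in tumour 5-2 and between 18.4 and 21 in tumour 5-1. Markers of dividing cells (3 of 4) summed to 249 in tumour 5-2 and 482 in tumour 5-1. Bile duct markers (5 of 6) summed to 143.6 in tumour 5-2 and 199.7 in tumour 5-1, and all tumours lay between 30.1 and 199.7. Epcam (37.5 and 128.4 in the same order) and Sox9 (26 and 47.2) were higher in tumour 5-1. Krt19 (28.5 and 10.1), Krt7 (20.5 and 3) and Cldn7 (31.1 and 11) were higher in tumour 5-2. Stellate and fibroblast markers summed to 2979.5 in tumour 5-2 and 2648.4 in tumour 5-1, and endothelial markers to 530.3 and 496.8. Both of these lists had genes on either side. The actin ratio was 1.59 in tumour 5-2 and 1.51 in tumour 5-1. The part of these cells in the result was not tested, and in whole tissue fewer cells of a type and less RNA per cell cannot be told apart.

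Beside the higher signals of the 8 genes in knockout livers, the same markers stood as follows. Macrophage markers summed to between 2326 and 4170 in non-tumorous knockout livers and between 1816 and 1915 in controls, and stellate and fibroblast markers (7 of 7) to between 1698.5 and 4674 in knockout livers and between 894.5 and 1253 in controls. Over these 9 arrays 6 of 7 stellate and fibroblast markers were called higher, led by Col1a1 (2.26) and Lum (1.95), and 3 of 7 macrophage markers, led by Lyz2 (2.06) and Cd68 (1.67) on the log2 scale. Of all probe sets, 9.29% were called in this fit, in either direction. Endothelial markers (5 of 5) summed to between 406 and 675 in knockout livers and between 340 and 397 in controls, and 1 of 5, Vwf, was called higher over the 9 arrays (1.47, adjusted p = 0.00765). Markers of dividing cells (3 of 4) summed to between 102 and 163 in knockout livers and between 35.2 and 95.3 in controls, without overlap and with 0 of 3 called over the 9 arrays. The sum of hepatocyte markers overlapped between the groups, although Alb and Apoa1 were each lower in all 6 knockout livers than in any control, and 0 of 6 were called in either fit. The actin ratio lay between 1.74 and 2.74 in knockout livers and between 2.55 and 3.37 in controls. Bile duct markers (5 of 6) summed to between 83.5 and 218 in knockout livers and between 68.8 and 147.9 in controls, with 0 of 5 called over the 9 arrays. Lymphocyte markers (6 of 6) summed to between 139.6 and 270.9 and between 135.4 and 148.1 in the same order, with 0 of the 3 tested called. The part of cell composition in the difference was not tested.

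Across the 15 arrays the 8 genes varied together. Pearson's r of log2 signals over the 28 pairs of genes lay between 0.81 (Hmgcs1 and Fdft1) and 0.97 (Cyp51 and Mvd), with a median of 0.92, and Spearman's rho between 0.64 (Sqle and Mvd) and 0.99 (Idi1 and Cyp51). Two-sided permutation p-values, Benjamini-Hochberg adjusted over the 28 pairs, lay between 1.87e-05 and 0.00263 for r and between 3.5e-05 and 0.0117 for rho; 1e-05 was the smallest unadjusted p that the 100000 resamples could give. Several arrays share a mouse, which a permutation of arrays does not take into account. Without the 2 arrays farthest from the median of the first gene, r lay between 0.57 (Sqle and Mvd) and 0.93 with a median of 0.83, so the height of r rested in part on tumours 5-1 and 5-2. With group means taken out the median was 0.92.

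Within the 6 tumours r lay between 0.81 (Hmgcs1 and Fdft1) and 0.99 (Sqle and Fdps), with a median of 0.94. By exact permutation 28 of 28 pairs had an adjusted p under 0.05, between 0.00819 and 0.025. The 28 pairs are formed from only 8 genes and are not independent. The lowest and the highest tumour were the same for all 8 genes and came from 1 mouse, which the permutation does not take into account. Neither r within the tumours without these arrays nor the share of other gene pairs passing this test was computed, so the count has no background beside it. Within the 6 non-tumorous knockout livers the median was 0.85, from 0.54 (Hmgcs1 and Fdps) to 0.99 (Fdps and Lss). There 0 of 28 pairs passed by exact permutation after adjustment (lowest adjusted p = 0.0519), although 11 had an unadjusted p under 0.05. Livers 1 and 4 were the highest for all 8 genes by the brightest probe sets. The controls, with 3 arrays, were not tested.

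**Figure D4:**
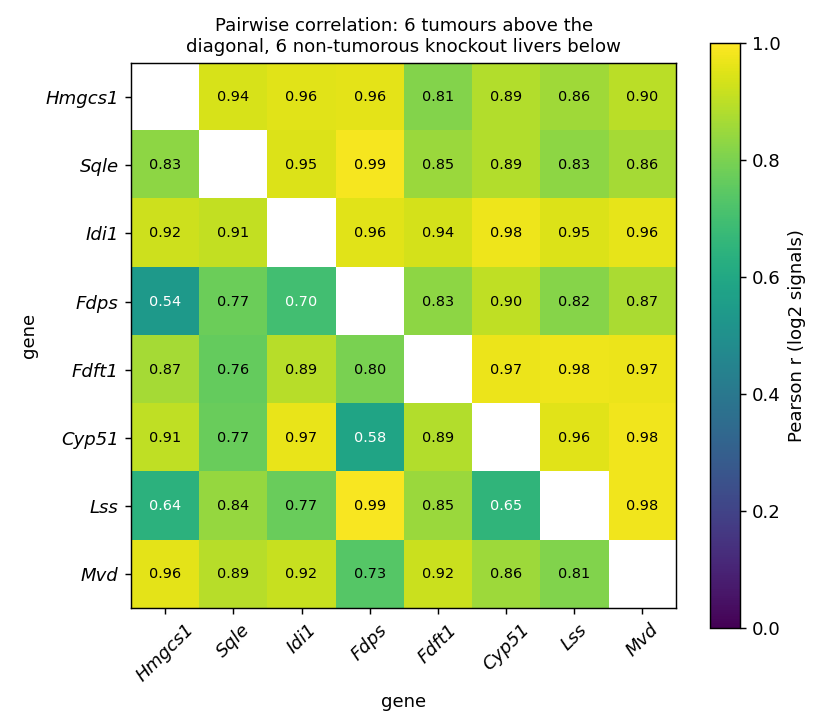
Pearson's r between log2 signals of each pair of genes, within the 6 tumours above the diagonal and within the 6 non-tumorous knockout livers below it. Values in tumours lie between 0.81 and 0.99, and those in livers between 0.54 and 0.99, with the lowest for Hmgcs1 and Fdps.

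Over all 15 arrays the further probe sets mostly followed the same course. Set against the mean of the other 7 genes, every Hmgcs1, Idi1, Fdft1 and Mvd probe set that passed the filter had an r of at least 0.92 over 15 arrays. The exceptions were the dimmest Lss probe set at 0.28, the other further Lss probe set at 0.73 and the dimmest Cyp51 probe set at 0.77. Without the 2 farthest arrays these stood at -0.34, 0.30 and 0.52, and the second Idi1 probe set at 0.75. The further probe sets of Hmgcs1, Fdft1 and Mvd then stayed between 0.91 and 0.93. The dimmest of Lss and of Cyp51 had mean signals of 37.8 and 27.3 over 15 arrays.

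The genes whose course was most like the mean of the 8, out of 9528 genes, included 6 enzymes of the same pathway among the first 10. In order of Pearson's r over 15 arrays they were Rdh11 (0.96), a retinol dehydrogenase, Nsdhl (0.95), Dhcr7 (0.94), Mvk (0.94), Pmvk (0.93), Msmo1 (0.92), Sc5d (0.88), Abcg2 (0.87), a drug transporter, Acss2 (0.86), which makes acetyl-CoA from acetate, and Leprotl1 (0.86). Nsdhl, Dhcr7, Msmo1 and Sc5d act after lanosterol, and Mvk and Pmvk are the kinases of mevalonate. These genes were picked for their likeness, so no test is given, and r depends on the 2 extreme tumours to different degrees. Without them Rdh11 stayed at 0.94 and Pmvk at 0.88, while Acss2 stood at 0.53 and Abcg2 at 0.39; within the 6 non-tumorous knockout livers Abcg2 was at -0.50 and Dhcr7 at 0.98.

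Rdh11 had signals of 1549.5 in tumour 5-2 and 85.9 in tumour 5-1, and Nsdhl 4006 and 159 in the same order. Msmo1, the sterol methyl oxidase, had 5741 in tumour 5-2 and 84.4 in tumour 5-1. Sc5d was lowest in tumour 3, at 567, beside 604 in tumour 5-1.

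Of 13 further enzymes of the pathway, 10 were measured, and 0 of them were called in any of the 3 comparisons over all arrays. Their median log2 change was 0.21 in non-tumorous knockout livers over controls, with 7 of 10 positive, -0.31 in tumours over non-tumorous knockout livers, with 8 of 10 negative, and 0.019 in tumours over controls. Over the 9 arrays of knockout livers and controls, Dhcr7, the last step to cholesterol in one route, rose (log2 change 0.74 ± 0.19 SE, adjusted p = 0.0208) and Tm7sf2, a sterol reductase, fell (-0.68 ± 0.14 SE, adjusted p = 0.00476). Sc5d, the brightest, had a log2 change of 0.13 in knockout livers over controls. Ebp, a sterol isomerase, and Tm7sf2, named here after their values had been seen, had log2 changes of -0.81 and -1.10 in tumours over controls (adjusted p = 0.0603 and 0.198, limma over all arrays). The median r of the 10 with the mean of the 8 genes was 0.90, and the lowest were Lbr (0.31), Ebp (0.51) and Tm7sf2 (0.70). Within the tumours Ebp and Tm7sf2 had an r of 0.94 and 0.97, and Lbr of 0.20. Over the 13 arrays without the tumours of mouse 5, r was 0.093 for Ebp, 0.13 for Tm7sf2 and 0.81 for Lbr.

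**Figure D5:**
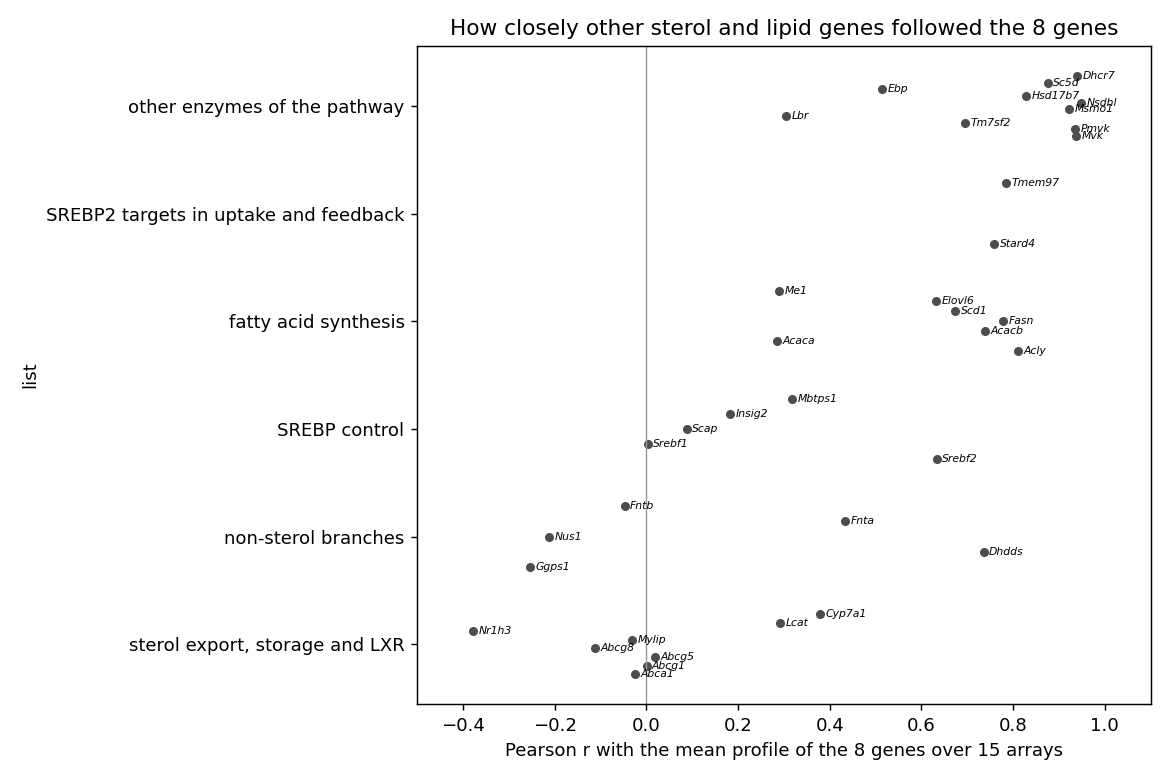
Pearson's r of single genes with the mean log2 profile of the 8 genes over 15 arrays, by list; points are genes, spread vertically within a list for legibility. Of the other enzymes of the pathway 7 lie above 0.8 and Lbr, Ebp and Tm7sf2 lie lower, fatty acid synthesis genes lie between 0.28 and 0.81, and genes of sterol export lie near or below 0.38.

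Genes that control SREBP had a median r of 0.18 with the mean profile. Srebf2, which encodes SREBP2 and is itself an SREBP target, had an r of 0.63 with the mean profile, and signals of 197 in tumour 5-2 and 131 in tumour 5-1. Srebf1, which encodes the lipogenic SREBP1, had an r of 0.003 and fell to 1052 ± 127 in tumours, against 1808 ± 260 in controls (SD, n = 6 and 3; log2 change -0.78 ± 0.22 SE, adjusted p = 0.0447). Scap, the escort of SREBP, fell to 477 ± 221 in tumours, against 935 ± 215 in controls (-1.07 ± 0.31 SE, adjusted p = 0.0448), and was low in both tumours of mouse 5, at 283 in 5-2 and 204 in 5-1. Of the 5 measured of 9 listed, these were the only calls over all arrays, and over the 9 arrays 0 were called. Srebf1, the brightest, had a log2 change of -0.18 (SE 0.22) in knockout livers over controls. The 2 measured of 6 listed SREBP2 targets in uptake and feedback, Stard4 and Tmem97, had an r of 0.76 and 0.78 with the profile and 0 calls. Without the tumours of mouse 5 r was -0.19 for Stard4 and 0.74 for Tmem97, and within the 6 non-tumorous knockout livers 0.058 and 0.15; Stard4, the brighter, was at -0.14 in knockout livers over controls.

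Fatty acid synthesis is mainly driven by SREBP1. The 7 genes had a median r of 0.67, from 0.28 (Acaca) to 0.81 (Acly), beside -0.050 over all 9528 genes. Without the tumours of mouse 5 r was lower for each of the 7, between -0.013 (Me1) and 0.57 (Acacb), with Acly at 0.50 and Fasn at 0.54. Within the 6 non-tumorous knockout livers Acly was at 0.88, Fasn at 0.15, Scd1 at -0.43 and Acaca at -0.75. In non-tumorous knockout livers over controls their median log2 change was 0.59 and 0 were called over all arrays; Scd1, the brightest, was at 0.19, and over 9 arrays Fasn (1.51 ± 0.15 SE), Elovl6 (1.55 ± 0.25 SE) and Acly (0.59 ± 0.14 SE) rose. In tumours over controls Acaca was the only one of the 7 that was called. It had 41.7 ± 14.3 in tumours, against 14.1 ± 7.26 in controls (SD, n = 6 and 3), at signals close to background. Its log2 change was 1.14 ± 0.31 SE (adjusted p = 0.0354, limma over all arrays). The change was positive for 5 of the 7 and negative for 2. Fasn was at 1.38 (adjusted p = 0.107) and Elovl6 at 1.36 (adjusted p = 0.166) in the same fit. Fasn, fatty acid synthase, had signals of 5451 in tumour 5-2 and 443 in tumour 5-1, and Acly 5686 and 631.

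Genes of the non-sterol branches (5 measured of 8) had a median r of -0.048 with the mean profile and 0 calls over all arrays; Fnta, the brightest, a subunit of protein farnesyltransferase, had a log2 change of -0.062 in knockout livers over controls. Over 9 arrays Nus1, which serves dolichol synthesis, fell (-0.76 ± 0.23 SE, adjusted p = 0.0465). Genes of sterol export, storage and the LXR receptor (8 of 11) had a median r of -0.013, and Lcat, which esterifies cholesterol in plasma, fell in tumours to 1190 ± 466, against 2028 ± 181 in controls (SD, n = 6 and 3; log2 change -0.85 ± 0.25 SE, adjusted p = 0.0478). Over 9 arrays Abcg8, a subunit of the transporter that moves sterol into bile, fell in knockout livers (-1.07 ± 0.19 SE, adjusted p = 0.00175).

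Of the marker lists over all arrays, tumours over controls gave calls for Apoa1 of hepatocytes (log2 change -0.54), Cd68 (1.97) and Lyz2 (1.93) of macrophages, Col1a1 (2.64) of stellate cells and fibroblasts, Ptprc (1.55) of the lymphocyte list, and Top2a (1.90) and Cdk1 (1.38) of dividing cells. All leukocytes carry Ptprc, so its call does not single out lymphocytes, and only 3 of the 6 lymphocyte markers were tested. In knockout livers over controls the calls were Cd68 (1.67), Lyz2 (2.06), Lum (1.95) and Pdgfrb (1.51), and in tumours over non-tumorous knockout livers there were 0 among these lists. Endothelial and bile duct markers gave 0 calls over all arrays. Median r with the mean profile of the 8 genes lay between -0.16 (lymphocyte) and 0.18 (bile duct) for the 7 marker lists.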

How the data were processed

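The deposited values are probe set signals, linear intensity values that the authors computed with MAS5, per the submitters' processing notes, which state no version. Arrays were already scaled to 1 level (trimmed means 148.7 to 149.0), and depth has no meaning for arrays. Of 22690 probe sets, 64 controls were left out; 20380 were annotated to 1 gene, 691 to several and 1555 were unnamed here. From these signals log2(signal + 9.1) was computed, the constant being the 20th percentile of all signals, and 16120 probe sets above the array's 40th percentile on at least 3 arrays were fitted with limma 3.58.1 (R 4.3.3, statmod 1.5.0), with a trend and the mouse as a random block (consensus correlation -0.0128), and Benjamini-Hochberg adjustment over all 16120 at 0.05. Same-numbered tumours and livers came from 1 mouse, by the titles. Correlations used SciPy 1.17.1. The brightest probe set stood for a gene. From each list the 2 largest rises and falls among called genes, or the brightest gene, were named, and the 10 genes most like the mean profile. The 8 genes, the lists and the motifs were chosen with earlier results of these data known. The alternatives were other constants, filters and normalizations, 1 probe set per gene, only the 2 groups compared, other blocks, the actin ratio as a covariate and each array left out. The code was tested on simulated data.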

Additional observations from a re-analysis of the deposited data

How the results depend on the processing

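In non-tumorous knockout livers over controls, 0 of the 18 member probe sets were called in each alternative that fitted all 3 groups, and 8 with only these 2 groups fitted. The following were chosen after seeing the data: with 2 groups, quantile normalization gave 7 calls (8.9% of all probe sets), arrays centred on their medians 7 (8.86%) and the actin covariate 0 (5.74%), and leaving out each array gave 3 to 11 (5.14% to 9.61%; 6 without knockout liver 1, 4 or 6); with both tumours of mouse 5 left out of the fit of all groups, 0 were called in each comparison. The share of all probe sets called in knockout livers over controls was 1.82% in the fit as reported, 0.236% with the actin covariate and 9.29% with 2 groups. For the fit without the tumours of mouse 5 no share is given, so its 0 calls have no background beside them. In tumours over controls 0 to 1 of 18 were called when each array was left out, against 2.36% to 7.47% of all probe sets. The 1 was Sqle without tumour 5-1. The median r over gene pairs was 0.83 without both tumours of mouse 5, also with group means out (0.831), and lay between 0.884 and 0.946 when each array was left out. The pairing of tumours and livers by mouse was fitted as a fixed replicate block in 4 matched animals, with 0 calls, and no replicate block also gave 0 calls. In tumours over non-tumorous knockout livers 0.124% of all probe sets were called in the fit as reported, so counts of 0 there say little about the 8 genes.

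The 8 genes kept a positive log2 change in knockout livers over controls in every alternative run. In tumours over non-tumorous knockout livers, where 0 were called, the sign turned for each gene when single arrays were left out: Hmgcs1 lay between -0.63 and 0.33, Sqle between -0.37 and 0.65, Idi1 between -0.80 and 0.32, Fdps between -0.83 and 0.17, Fdft1 between -0.30 and 0.45, Cyp51 between -0.52 and 0.54, Lss between -0.81 and 0.42, and Mvd between -0.57 and 0.28. Without both tumours of mouse 5 Hmgcs1 was at 0.0020, Fdft1 at -0.11 and Cyp51 at -0.14. Lss was at 0.015 with the larger constant, and with the fixed replicate block Lss was at 0.035 and Mvd at 0.097. In tumours over controls Mvd lay between -0.15 and 0.69 when each array was left out. The cause was not tested. With 3 controls and 9 mice, intervals were wide, and dim probe sets are limited by background.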
